A study of Homo sapiens with 4 samples.

Results

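The 82 genes described here encode the proteins of the cytosolic ribosome, out of 40205 genes in the deposited count table. They were chosen by name. A gene was taken where its symbol was RPL or RPS, a number and at most one closing letter A, X or L, or where it was RPLP0, RPLP1, RPLP2 or RPSA. Numbered pseudogenes and the RPS6K kinases were left out. Of these genes 49 belong to the large subunit and 33 to the small subunit. The low-count filter passed 80 of them, among 16323 genes tested, and left out RPL3L and RPL10L.

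The study measured RNA in SKOV3, an established human ovarian cancer cell line, in control cells and after 24 h with 80 µg/mL of 20(S)-Rg3, a ginsenoside from ginseng. There were 2 libraries per group, called control 1, control 2, Rg3 1 and Rg3 2 below. Cells of both groups grew in RPMI 1640 medium with fetal bovine serum, and libraries were made from TRIzol RNA with a kit that removes ribosomal RNA and does not select for poly(A) tails. The protocol text gives the Rg3 dose for all 4 samples, so groups were read from the treatment label, and what the control cells were given instead is not stated. The labels call the RNA pooled and name no separate cultures behind the libraries, so p-values measure only how far these libraries differ, and that spread may be technical. All data come from 1 cell line, 1 dose and 1 time.

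The ribosome is assembled from ribosomal RNA and about equal amounts of each ribosomal protein, so the genes for these proteins are usually expressed together. Most of their mRNAs begin with a C followed by a run of pyrimidines, the 5′ terminal oligopyrimidine (TOP) tract. Through this tract the mTOR pathway controls their translation with the RNA-binding protein LARP1. RNA counts, as here, report mRNA amount and not translation.

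The tract was looked for in DNA around annotated transcription starts from RefSeq on the GRCh38.p14 assembly, which is newer than the GRCh37 build that the submitters' processing notes name and was used for sequence only. A window was found for 64 of the 82 genes. In 46 of the 64 (71.9%) a listed start was a C followed by at least 4 more C or T, against 698 of 9512 tested genes with a window (7.34%). The 30 bases shown for each gene are the 15 before the annotated start and the 15 from it, 5′ to 3′ on the gene's strand. Capitals mark the pyrimidine run as far as it falls in these bases, and a sequence without capitals has no such run at the start. The genes were chosen because the results below turn on them or on their paralogs. RPL3, RPL4, RPL9, RPL32 and RPS4X are also described below, had no tract at a listed start and are not printed.
RPLP0 (chr12:120201097-120201126, minus strand): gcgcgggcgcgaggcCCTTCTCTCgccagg
RPLP1 (chr15:69452803-69452832, plus strand): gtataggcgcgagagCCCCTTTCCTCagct
RPLP2 (chr11:809952-809981, plus strand): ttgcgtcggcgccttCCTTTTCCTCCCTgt
RPL10 (chrX:154398362-154398391, plus strand): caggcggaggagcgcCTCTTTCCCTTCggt
RPL10L (chr14:46651767-46651796, minus strand): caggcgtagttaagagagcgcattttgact
RPL11 (chr1:23691791-23691820, plus strand): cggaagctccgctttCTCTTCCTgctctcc
RPL13A (chr19:49487593-49487622, plus strand): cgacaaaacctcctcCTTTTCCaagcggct
RPL21 (chr13:27251543-27251572, plus strand): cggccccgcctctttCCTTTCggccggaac
RPL36 (chr19:5690280-5690309, plus strand): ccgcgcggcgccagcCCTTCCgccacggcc
RPL39 (chrX:119791616-119791645, minus strand): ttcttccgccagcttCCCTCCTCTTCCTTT
RPS6 (chr9:19380222-19380251, minus strand): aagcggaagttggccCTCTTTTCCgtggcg
RPS16 (chr19:39435935-39435964, minus strand): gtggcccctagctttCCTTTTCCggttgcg
RPS26 (chr12:56041903-56041932, plus strand): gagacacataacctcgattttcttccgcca
RPS27 (chr1:153990747-153990776, plus strand): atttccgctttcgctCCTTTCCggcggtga
RPS27L (chr15:63157463-63157492, minus strand): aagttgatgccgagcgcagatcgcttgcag
RPSA (chr3:39406705-39406734, plus strand): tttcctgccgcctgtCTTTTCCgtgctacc

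The stalk genes RPLP0, RPLP1 and RPLP2 and the S6 kinase substrate RPS6 carry the tract, and so does RPS27, whereas its paralog RPS27L and the paralog RPL10L of RPL10 do not. RPS26 has no tract at its annotated start in this window, though pyrimidines follow a few bases further on.

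The libraries held 24482846 (control 1), 26731913 (control 2), 30132517 (Rg3 1) and 24571619 (Rg3 2) counts. SKOV3 cells are keratin-positive and carry extra copies of ERBB2, though copy number was not measured here. ERBB2 stood at 45.2 to 53.5 CPM (a gene's counts per 1000000 counts of the library, with library sizes scaled by TMM in edgeR), KRT7, KRT8 and KRT18 at 1557 to 2817 CPM, and EPCAM had 0 counts in all 4 libraries. Of the 12 epithelial and SKOV3 markers on the list 5 were at 10 CPM or more in every library (these 3 keratin genes, ERBB2 and VIM) and 4 were under 1 CPM in every library (EPCAM, KRT19, PAX8 and WT1), and MUC16, CDH1 and CDH2 lay between, at 0.623 to 11.4 CPM. Of 13 markers of leukocytes, endothelium, fibroblasts and liver, 11 were under 1 CPM in every library, and the endothelial cadherin gene CDH5 stood at 16.2 to 19.5 CPM. CPM values are shares of a library, so a change in the RNA of all genes together would not be seen, and in bulk RNA a smaller number of cells of one kind and less RNA per cell cannot be told apart.

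The mean share of all counts taken by the ribosomal protein genes differed between the groups by less than the spread between the Rg3 libraries. Their summed share was 2.44% in control 1, 2.52% in control 2, 2.26% in Rg3 1 and 2.67% in Rg3 2. The lowest and the highest values were thus both Rg3 libraries, with the controls between them. The means were 2.48% ± 0.0535 in controls and 2.46% ± 0.290 with Rg3 (SD, n = 2 each), a difference of -0.0217 percentage points (two-sided exact permutation p = 1, where 0.333 is the smallest that 2 against 2 libraries allow). Both subunits followed the same order of libraries. Large-subunit genes took 1.44%, 1.48%, 1.34% and 1.54% (in the order control 1, control 2, Rg3 1, Rg3 2, which is kept for every set of 4 values here), and small-subunit genes 1.001%, 1.04%, 0.919% and 1.12%.

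No ribosomal protein gene passed the test between Rg3 and control. The smallest adjusted p over the 80 genes was 0.999 (edgeR quasi-likelihood test, Benjamini-Hochberg adjustment over all 16323 genes, threshold 0.05), and DESeq2 also called 0. Over all genes tested edgeR called 5 as higher with Rg3 (0.0306%) and 0 as lower (0%), and DESeq2 called 54 in either direction (0.331%). At an unadjusted p under 0.05, edgeR listed 1 ribosomal protein gene, RPS26, against 772 of all genes (4.73%).

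The fold changes lay close to 0 on both sides. Of the 80 genes 37 were above 0 (46.2%) and 43 below, against 52.5% above 0 for all genes tested. The median log2 fold change, Rg3 over control, was -0.0083 beside 0.0136 for all genes. The quartiles of the ribosomal protein genes ran from -0.10 to 0.08, and those of all genes from -0.15 to 0.14. Within 0.1 of 0 lay 45 genes and within 0.3 lay 72. Large-subunit genes (22 above 0 and 25 below, median -0.0083) and small-subunit genes (15 and 18, median -0.021) differed by 0.0127 in their medians. Standard errors of single genes ran from 0.13 to 0.64 with a median of 0.17, so a change of the size of most of these fold changes could not be told from none with 2 libraries a group.

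**Figure D1:**
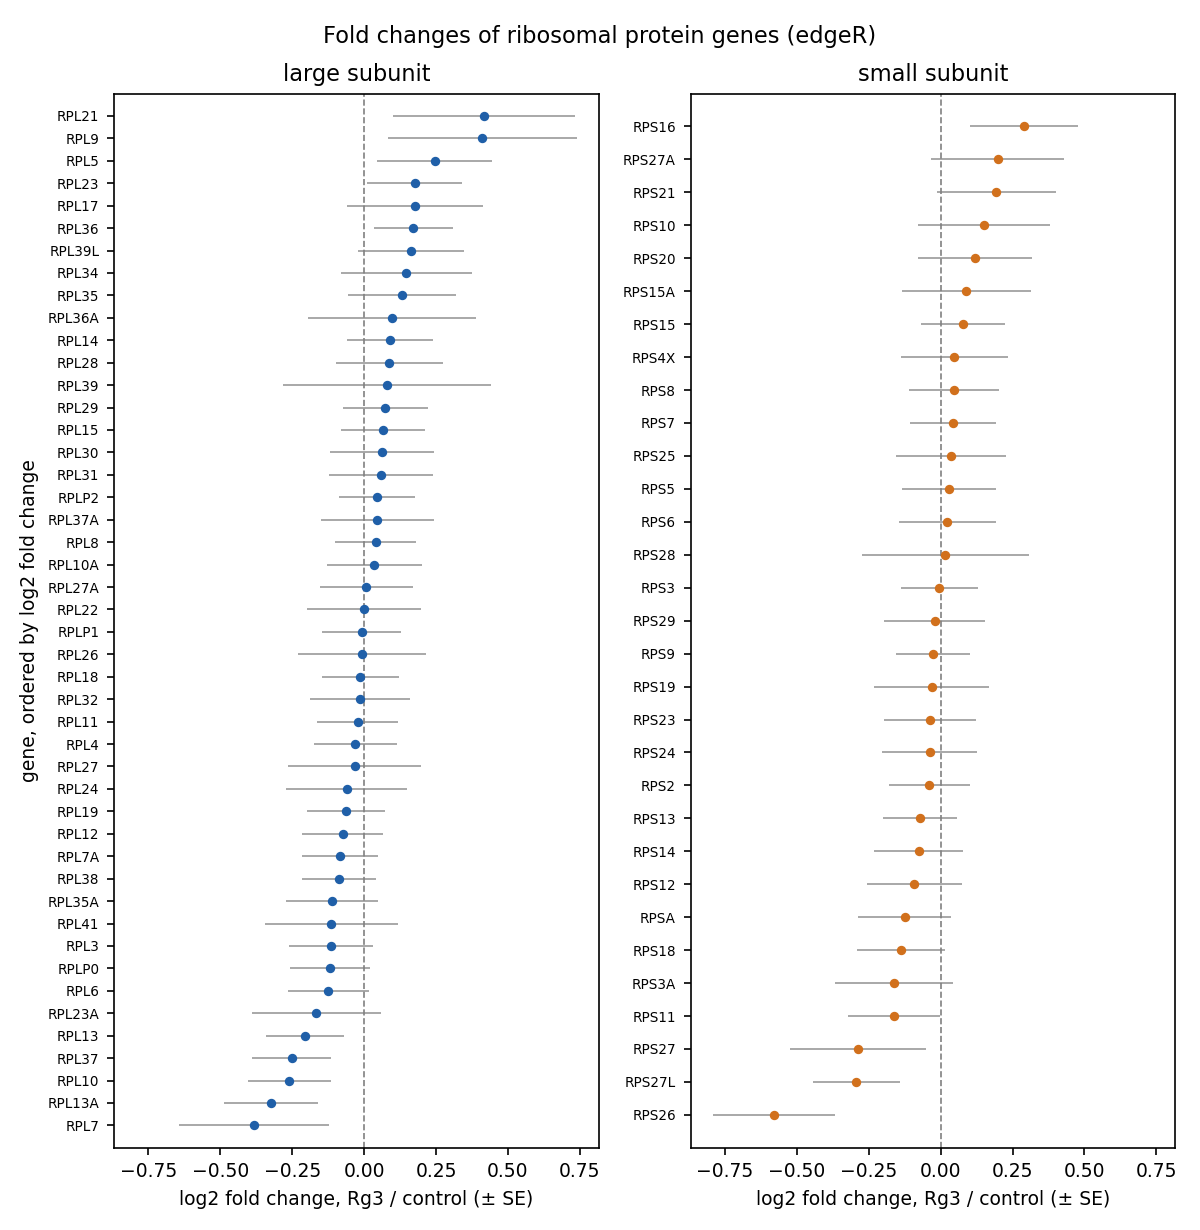
Log2 fold change, Rg3 over control, of 77 ribosomal protein genes with its standard error (bars), from edgeR on 2 libraries a group, with large-subunit genes on the left and small-subunit genes on the right. Values run from -0.58 (RPS26) to 0.42 (RPL21), and the bars of most genes cross 0.

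The Rg3 libraries stood apart from each other over this gene family more than the controls did. Rg3 2 was above Rg3 1 in 67 of 80 genes (83.8%, against 51.1% of all genes tested), with a median log2 difference of 0.37 where all genes had 0.01. Control 2 was above control 1 in 61 genes (76.2%, against 49.7% of all genes), but with a median of 0.06. Rg3 1 was below the control mean in 68 genes (median -0.20), and Rg3 2 was above it in 57 (median 0.16). In 52 genes Rg3 1 was below and Rg3 2 above the control mean, and 16 genes had both Rg3 libraries below, 5 both above and 7 the reverse order. In 45 genes the Rg3 pair enclosed both controls.

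**Figure D2:**
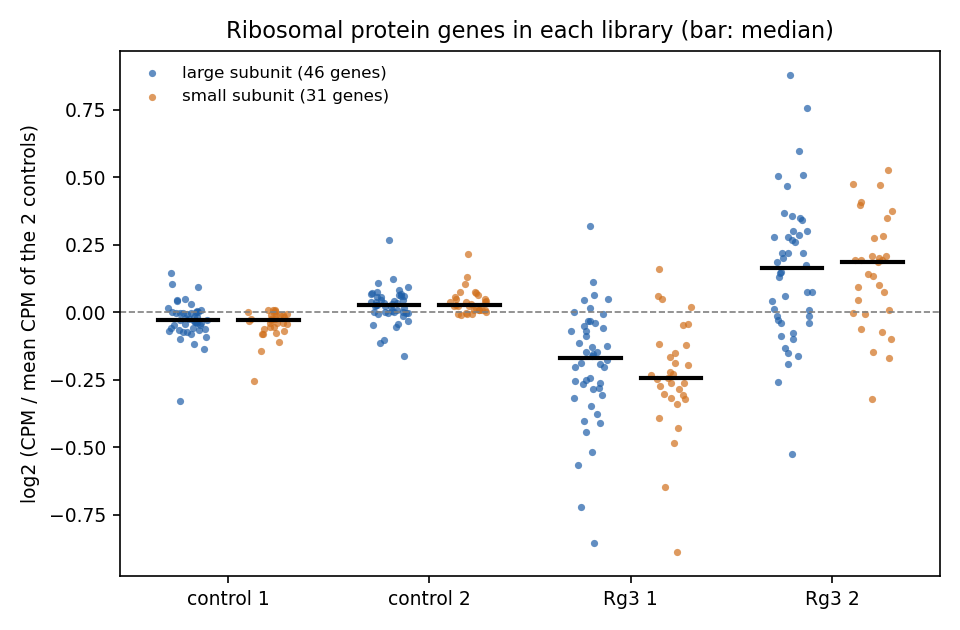
Each point is 1 ribosomal protein gene in 1 library, as log2 of its CPM over the mean CPM of the 2 controls, for 46 large-subunit and 31 small-subunit genes, and black bars are medians. Most genes are below 0 in Rg3 1 and above 0 in Rg3 2, while the controls lie close to 0.

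RPL39, a small protein of the peptide exit tunnel, shows this most clearly. Its level was 40.7 and 44.2 CPM in controls, and 25.7 and 64.2 CPM with Rg3. The controls lie close together and the Rg3 libraries on opposite sides of them. RPL9, near the base of the stalk, had 32.6, 30.3, 25.9 and 57.9 CPM, and RPL5 had 640, 676, 627 and 933 CPM. In both only Rg3 2 is far from the controls. Without Rg3 1 the log2 fold change of RPL9 was 0.88 and without Rg3 2 it was -0.28. Not all members followed: Rg3 2 was below Rg3 1 in 13 genes, among them RPL28 (38.6, 38.7, 48.2 and 33.8 CPM) and RPL13A (322, 302, 282 and 217 CPM). The own row of RPL39 held only 18.06% to 29.38% of the counts of gene and numbered pseudogenes together. For RPL9 it was 13.65% to 19.92%, and for RPL5 87.40% to 89.15%. The pseudogene rows of RPL39 summed to 3534, 3810, 3599 and 3716 counts, against 1002, 1169, 793 and 1546 in its own row.

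**Figure D3:**
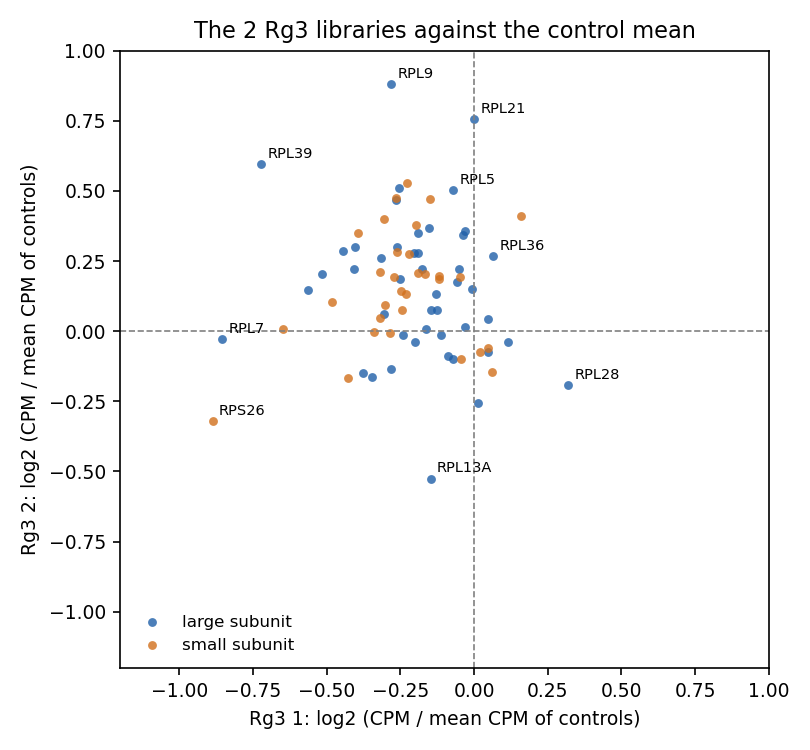
Log2 of CPM over the mean CPM of the controls in Rg3 1 (horizontal) and Rg3 2 (vertical) for 77 ribosomal protein genes, coloured by subunit. The upper left part, below the controls in Rg3 1 and above them in Rg3 2, holds 51 of the genes plotted, and RPS26 is low in both.

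Which genes passed with a single library left out depended on which Rg3 library was kept, with the lone library assumed to vary like the other group. In this family the Rg3 libraries lay further apart (median log2 difference 0.37) than the controls (0.06). Fits without an Rg3 library take their spread from the controls, so their calls below overstate the precision. Without Rg3 1 the median over the family was 0.17, and 9 genes were called higher (RPL5, RPL9, RPL17, RPL34, RPL39, RPS10, RPS15A, RPS21 and RPS27A) and 2 lower (RPL13A among them), together 13.8%, where 2.53% of all genes were called higher and 2.69% lower. Without Rg3 2 the median was -0.20 and 6 genes were called lower (RPL7, RPL23A, RPL39, RPL41, RPS26 and RPS27) and 0 higher, together 7.50%, where 1.80% of all genes were called higher and 0.879% lower. RPL39 is in both sets with opposite signs, at 0.60 without Rg3 1 and -0.72 without Rg3 2. In every library the own rows of RPL7, RPL23A, RPL39, RPL41, RPS26 and RPS27 held under 50% of the counts of gene and numbered pseudogenes together. In the set without Rg3 1 this was also so for RPL9, RPL13A, RPL17, RPS10 and RPS27A. It was not so for RPL5, RPL34, RPS15A and RPS21. Without control 2, 1 gene was called in each direction (0.184% of all genes higher, 0.107% lower), and without control 1 no ribosomal protein gene was called (0.247% higher, 0.388% lower).

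Other classes of RNA differed between the same 2 libraries. The numbered ribosomal protein pseudogenes took 1.18%, 1.21%, 1.09% and 1.30% of counts, in the same order as the genes. Mitochondrially encoded RNA took 8.48%, 9.48%, 9.07% and 7.25%, so it was lowest in Rg3 2, and small nucleolar RNA took 16.1%, 15.6%, 14.5% and 16.4%. Rg3 1 was also the deepest library. Whether any of these has a part in the split of the ribosomal protein genes was not tested. Among 652 other tested genes with a pyrimidine tract at an annotated start, 315 were higher in Rg3 2 than in Rg3 1, with a median log2 difference of -0.02. For ribosomal protein genes with the tract it was 38 of 46 with a median of 0.36. For those with a window but no tract at an annotated start it was 16 of 17 with a median of 0.40. Some of the latter, such as RPS26, have pyrimidines a few bases further on. Whether the tract has a part in the split was not tested.

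Of genes that build the ribosomal stalk, where translation factors bind, RPLP0 had 1335, 1423, 1199 and 1343 CPM, RPLP1 159, 182, 167 and 172 CPM, and RPLP2 150, 164, 162 and 162 CPM. In each of the 3 the groups overlap, and the log2 fold changes were -0.12 ± 0.14, -0.0083 ± 0.14 and 0.05 ± 0.13 (SE). RPL3, whose protein reaches the peptidyl transferase centre, had 214, 219, 219 and 182 CPM, with only Rg3 2 apart (log2 fold change -0.11, and 0.02 without Rg3 2). RPL41, the shortest of the ribosomal proteins, had 81.8, 70.2, 53.1 and 87.5 CPM, where the Rg3 pair encloses the controls (-0.11 ± 0.23, and -0.52 without Rg3 2). RPL7 had 80.3, 64.8, 40.1 and 71.2 CPM, with only Rg3 1 below both controls (-0.38 ± 0.26, and -0.85 without Rg3 2).

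RPL5 and RPL11 form a particle with 5S ribosomal RNA, which can also bind and inhibit MDM2, the ubiquitin ligase of p53. RPL11 had 503, 501, 460 and 530 CPM (log2 fold change -0.02 ± 0.14), with the controls inside the Rg3 pair. RPL5 had a fold change of 0.25 ± 0.20, which was 0.51 without Rg3 1 and -0.07 without Rg3 2. In the list of MDM2, p53 and their targets 0 of 7 genes were called. Whether p53 protein is present or active in these cells was not tested, so these levels are not a readout of that route. MDM2 itself stood at 91.3, 91.0, 92.4 and 91.7 CPM, nearly level in all 4 libraries. The cell cycle inhibitor gene CDKN1A had 62.2, 66.4, 48.4 and 46.1 CPM, both Rg3 libraries below both controls (-0.45 ± 0.13, unadjusted p = 0.0108, adjusted p = 0.905, edgeR).

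In the small subunit, RPS6, the substrate of the S6 kinases downstream of mTOR, had 812, 850, 729 and 960 CPM (0.02 ± 0.17). RPS4X had 1045, 1134, 935 and 1318 CPM (0.05 ± 0.19). In both genes the controls lie between the Rg3 libraries. RPSA, which is also known as a laminin receptor, had 388, 403, 317 and 409 CPM (-0.12 ± 0.16). RPS16, whose tail reaches the decoding site, had 167, 232, 222 and 265 CPM. Here control 1 is the low library and the groups overlap (0.29 ± 0.19).

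Only 12 of the 80 genes had groups that did not overlap. Both Rg3 libraries were below both controls in 11 genes (13.8%, against 17.0% of all genes tested) and above both in 1, RPL36 (1.25%, against 15.3% of all genes). The share below is near that of all genes, and the share above is under it. RPL36 of the large subunit had 114, 113, 119 and 137 CPM (0.17 ± 0.14). Of the 11, RPL6, RPL7A, RPL38 and RPS13 differed by -0.07 to -0.12 on the log2 scale, less than their standard errors.

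RPS26, a protein at the mRNA exit site of the small subunit, had the lowest fold change and the smallest p of the family. It stood at 18.2, 18.9, 10.0 and 14.9 CPM, from 449, 499, 309 and 358 counts. Both Rg3 libraries are below both controls, and Rg3 1 is the lower of them. The log2 fold change was -0.58 ± 0.21 (unadjusted p = 0.0280, adjusted p = 0.999, edgeR), and -0.89 without Rg3 2.

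The other genes below the controls in both Rg3 libraries had smaller differences. RPL10, which joins the large subunit late in its assembly, had 380, 406, 302 and 354 CPM (-0.26 ± 0.14). RPL37 had 374, 374, 294 and 334 CPM (-0.25 ± 0.14), and RPL13 had 365, 364, 300 and 332 CPM (-0.21 ± 0.14). In these 3 genes Rg3 1 is the lower Rg3 library. In RPL13A, also a component of a complex that represses translation in interferon-treated cells, it is Rg3 2 (-0.32 ± 0.16, and -0.52 without Rg3 1).

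Processed pseudogenes limit the values of single ribosomal protein genes, since nearly identical copies of these genes lie across the genome. The table holds 1883 rows of numbered pseudogenes named after these genes, 1360 of them with a count. How the authors assigned reads that match several copies is not given in the sources used here. In 24 of the tested genes the gene's own row held under 50% of the counts of gene and pseudogenes together in every library. The median size of the log2 fold change was 0.15 in these 24 genes and 0.07 in the 54 genes with over 50% in every library. The 24 also include rows with few counts, such as RPL21, RPS28 and RPL36A. Whether the number of counts has a part in this difference was not tested.

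Among genes with low own shares, RPS26 held 7.60% to 11.6% of its family's counts, RPS27 7.90% to 10.4%, RPL21 5.20% to 7.90%, RPS28 4.44% to 5.57% and RPL36A 3.10% to 4.34%. RPL7 held 12.9% to 20.7%. The pseudogene rows of RPS26 summed to 3411, 4116, 3609 and 4355 counts, against 309 to 499 counts in its own row. One of them, RPS26P50, went the other way from RPS26, with 65, 65, 285 and 137 counts (log2 fold change 1.56 ± 0.29, adjusted p = 0.346, edgeR).

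With gene and pseudogene counts summed, most of the larger differences were smaller. RPS26 moved from -0.58 to -0.04, RPL7 from -0.38 to -0.02, RPL13A from -0.32 to -0.09, RPS27 from -0.29 to -0.03, RPL9 from 0.41 to 0.07 and RPL21 from 0.42 to -0.0030. RPL36A and RPS28 moved away from 0, from 0.10 to 0.20 and from 0.02 to 0.17. Of the 80 genes 50 were closer to 0 after summing. Where the own row is a small part of the sum, the sum follows mainly the pseudogene rows. It then cannot show whether the value of the gene's own row holds. On their own 15 genes differed by more than 0.2 in either direction, and 7 did with pseudogenes. The 7 include RPS16 (0.29), RPL37 (-0.24) and RPL5 (0.22), whose own rows held most of the counts, and RPL17 (0.26). They also include RPS27L (-0.29), which has no numbered pseudogenes in the count table, so summing left its counts unchanged. RPL10 stood at -0.19 and RPL36 at 0.18 after summing. Over all 80 families the median was -0.0125, with 34 above 0 and 46 below and 0 called (edgeR, 0 also at an unadjusted p under 0.05).

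**Figure D4:**
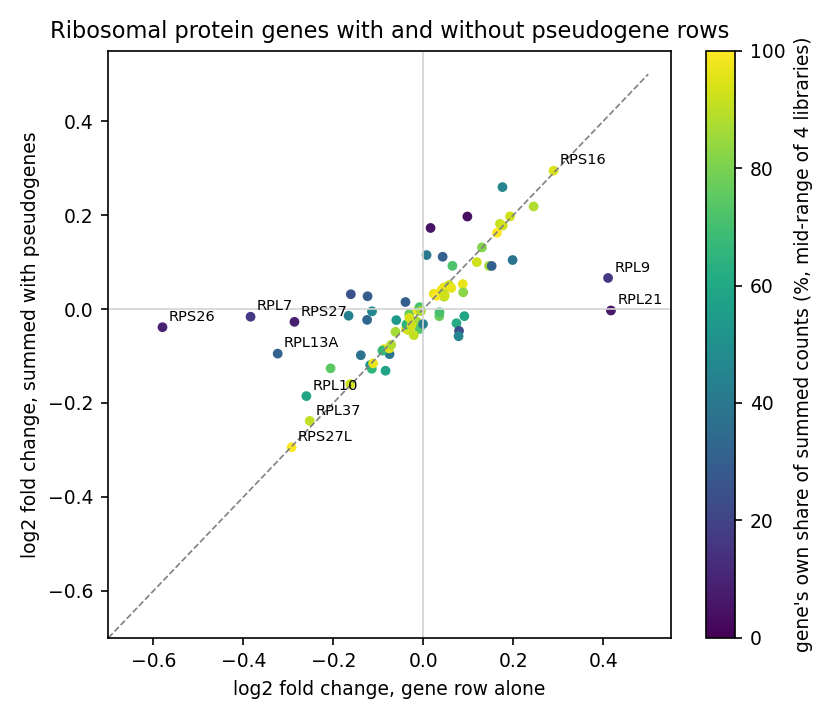
Log2 fold change of 77 ribosomal protein genes, each alone (horizontal) and with its numbered pseudogenes summed (vertical), coloured by each gene's own share of the summed counts in percent, with a dashed line where both are equal. Among genes with a low own share, RPS26, RPL7, RPL9 and RPL21 lie far from the line near 0 on the vertical axis. RPL36A and RPS28, also with a low own share, are further from 0 after summing.

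Read-through rows join a ribosomal protein gene to its neighbour. RPS10-NUDT3 had 2592, 2885, 2786 and 3549 counts, close to the 2570, 2909, 2751 and 3590 counts of RPS10 in every library. RPL17-C18orf32 had 836, 899, 730 and 1353 counts and RPL36A-HNRNPH2 had 388, 498, 528 and 443. None of the 3 was called (log2 fold changes 0.15, 0.23 and 0.04).

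Among paralogs with restricted expression, RPL3L, the striated muscle form of RPL3, had 1 count in each control and 8 and 12 counts with Rg3. Summed over groups and scaled by library size the ratio was 9.36 (95% exact interval 2.27 to 82.6, covering counting error only), and without the low-count filter its adjusted p was 0.263 (edgeR). RPL10L, an intronless germ cell form of RPL10, had 2, 3, 2 and 1 counts (ratio 0.562, interval 0.0872 to 2.89). RPL39L, a germ cell form of RPL39 also found in tumour cells, had 15.1, 14.2, 14.3 and 18.6 CPM (0.16 ± 0.18), without the wide split of RPL39 itself. RPS27L, a paralog of RPS27 that p53 can induce, had 44.1, 46.8, 33.8 and 40.5 CPM, both Rg3 libraries below both controls (-0.29 ± 0.15, unadjusted p = 0.0892, edgeR). RPS27 had 13.6, 13.5, 8.67 and 13.7 CPM, with only Rg3 1 low (-0.29 ± 0.24, 0.01 without Rg3 1, and -0.65 without Rg3 2). Genes with low levels gave little precision: RPL21 had 64, 60, 75 and 99 counts, RPS28 96, 102, 91 and 119, and RPL36A 90, 146, 124 and 141.

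Ribosomal protein genes also carry small nucleolar RNAs in their introns, which are released after splicing and guide chemical changes of ribosomal RNA: C/D box RNAs (SNORD) guide ribose methylation and H/ACA box RNAs (SNORA) pseudouridylation. Of 60 such RNAs listed for these hosts 55 were in the table and tested, from 27 host genes. None was called (12 at an unadjusted p under 0.05, edgeR), but 52 of the 55 had a log2 fold change below 0, with a median of -0.26, while the median of their hosts was -0.07. Both Rg3 libraries were below both controls in 34 of them (61.8%, against 17.0% of all genes tested), and above both in 0. The same held for small nucleolar RNAs that other genes carry or that have their own promoter: 202 of 243 were below 0, with a median of -0.23, 134 with both Rg3 libraries below the controls (55.1%), and 0 called (44 at an unadjusted p under 0.05, edgeR). The low values are therefore not shown to be particular to those in ribosomal protein genes. The summed share of all small nucleolar RNA was 15.85% ± 0.41 in controls and 15.42% ± 1.36 with Rg3 (SD, n = 2 each). It was highest in Rg3 2 (16.4%) and lowest in Rg3 1 (14.5%). Most rows were thus below 0 without a lower class share in both Rg3 libraries.

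Within the hosted RNAs, 37 of 39 SNORD were below 0 (median -0.31) and 15 of 16 SNORA (median -0.13). SNORD18B in RPL4 had 37.8, 39.7, 26.8 and 23.3 CPM (-0.63 ± 0.15, adjusted p = 0.603, edgeR), both Rg3 libraries well below the controls. Its host RPL4 had 1541, 1607, 1422 and 1658 CPM, with the controls between the Rg3 libraries. SNORD18C, also in RPL4, had 23.2, 23.6, 17.7 and 12.5 CPM, and SNORD58A in RPL17 had 13.0, 13.7, 9.64 and 8.06 CPM. Among the hosted RNAs with the most counts, SNORD83B in RPL3 had 800, 928, 749 and 998 CPM, SNORA65 in RPL12 had 736, 709, 726 and 562 CPM, and SNORA64 in RPS2 had 705, 708, 577 and 789 CPM, and in these 3 the groups overlap. SNORA10, also in RPS2, had 696, 778, 582 and 605 CPM, both Rg3 libraries below both controls (-0.31 ± 0.14, adjusted p = 0.999, edgeR). In 46 of 55 the fold change was below that of the host, and 15 of the 17 whose host was above 0 were themselves below 0. The median stayed negative with any one library left out, at -0.20 to -0.35, and the count below 0 was 43 without Rg3 1 and 52 without Rg3 2. Whether the size of the RNA, its recovery in the libraries or reads from the host's introns has a part in this was not tested.

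Other genes of ribosome synthesis were read from lists chosen for this pathway. None of their members was called by edgeR, and the counts at an unadjusted p under 0.05 were 1 of 11 chaperones and importers of ribosomal proteins (TNPO1), 1 of 20 other TOP mRNAs (EEF1G), 1 of 16 mTOR and MYC regulators (LARP4) and 0 of 35 assembly factors, 11 RNA polymerase I genes and 76 mitochondrial ribosomal protein genes.

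The assembly factors had 30 of 35 genes above 0 (median 0.11), and both Rg3 libraries were above both controls in 14 (40.0%, against 15.3% of all genes). Without Rg3 1, 24 were above 0. UTP20, part of the complex that processes the small subunit's precursor, had 141, 142, 160 and 167 CPM (0.21 ± 0.13), and NOP58, a core protein of C/D box particles, had 75.8, 78.9, 83.8 and 92.3 CPM (0.19 ± 0.13). All 11 chaperones and importers were above 0 (median 0.11), 9 without Rg3 1 and 8 without Rg3 2. TNPO1, a nuclear import receptor, had 397, 377, 486 and 499 CPM (0.35 ± 0.13, unadjusted p = 0.0321, adjusted p = 0.999, edgeR), with both Rg3 libraries higher. RNA polymerase I genes had 8 of 11 above 0 (median 0.09, and -0.01 without Rg3 2).

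The list of other TOP mRNAs holds translation factors and also other genes, such as HNRNPA1. It had 7 of 20 genes above 0 (median -0.07, and 0.03 without Rg3 1). The elongation factor subunit gene EEF1G had 686, 717, 579 and 549 CPM (-0.31 ± 0.13, unadjusted p = 0.0483, adjusted p = 0.999, edgeR), both Rg3 libraries below both controls. EEF1A1, which brings aminoacyl-tRNA to the ribosome, had 1292, 1381, 960 and 1437 CPM, the same order of libraries as the summed share of the ribosomal protein genes. Of the 20 genes 15 were higher in Rg3 2 than in Rg3 1, with a median log2 difference of 0.17. EEF1G, EEF2 (1675 CPM in Rg3 1 and 1266 in Rg3 2) and PABPC1 were among those lower in Rg3 2. FAU, which encodes a ribosomal protein fused to a ubiquitin-like sequence and falls outside the name rule, had 149, 151, 148 and 157 CPM. Of the 7 ribosomal proteins and paralogs outside the rule, all were higher in Rg3 2 than in Rg3 1. The 7 include RPLP0P6 (900 CPM in Rg3 1 and 913 in Rg3 2), which is also counted among the numbered pseudogenes.

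The regulators had 12 of 16 genes above 0 (median 0.07, and -0.04 without Rg3 1). LARP4, a poly(A) tail-protecting protein that acts on ribosomal protein mRNAs, had 83.0, 82.7, 98.0 and 110 CPM (0.33 ± 0.13, unadjusted p = 0.0405, adjusted p = 0.999, edgeR). LARP1 had 125, 113, 158 and 91.8 CPM, with Rg3 1 high and Rg3 2 low, the reverse of most ribosomal protein genes. MYC had 179, 196, 201 and 144 CPM, also lowest in Rg3 2. The mitochondrial ribosomal protein genes, whose products form the separate ribosome inside mitochondria, had 63 of 76 above 0 (median 0.08), but 27 of 76 (median -0.04) without Rg3 2, so Rg3 2 decided that direction.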

How the data were processed

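RNA sequencing counts of 4 SKOV3 libraries were analysed. The authors deposited raw read counts per gene symbol, whole numbers that were not normalised. Per the submitters' processing notes the build was GRCh37; aligner, counter, annotation and strand setting are not given in the sources used here, so reads of overlapping antisense genes may be included. The submitters name an Ion Torrent instrument in one place and an Illumina instrument in another, and which was used is not settled. The test was run in edgeR 4.0.16 under R 4.3.3 (filterByExpr with minimum count 10 and minimum total 15, TMM, quasi-likelihood test, 2 residual degrees of freedom, Benjamini-Hochberg adjustment). Standard errors came from the F statistic. The scripts were tested on simulated data. DESeq2 1.42.0, limma 3.58.1 voom, other scalings and filters, the replicate number as a block, summed pseudogenes and single libraries left out were alternatives. Of 40205 genes, 14537 had no count.

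The genes, lists and rules were chosen with earlier results of these data known. Genes named were those with the largest non-overlapping changes (5 per direction, where present), the 10 smallest p-values, those not tested or under 10 CPM, a set named whatever its values, and in other lists the 3 smallest p-values. Other genes named were chosen after their values were seen. Levels were not compared between genes because lengths were not used here. A few genes are not reported here; they stayed in every test and count, and the figures leave them out.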

Additional observations from a re-analysis of the deposited data

How the results depend on the processing

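The count of 0 called ribosomal protein genes and the sign of their median held in every setting that used all 4 libraries, among other scalings, small nucleolar or mitochondrial RNA left out, no low-count filter, DESeq2, limma voom, the replicate block and summed pseudogenes. With single libraries left out the count ran from 0 to 11, the median log2 fold change from -0.20 to 0.17, the large minus small median from -0.039 to 0.082, and the share difference from -0.23 to 0.18 percentage points. With pseudogenes summed 11 of 80 genes changed sign, among them RPL21 (0.42 to -0.0030), RPL6 (-0.12 to 0.03) and RPS3A (-0.16 to 0.03). Of the genes named by rule, other sign changes with all 4 libraries were those of RPL39 with voom (-0.082), with the replicate block (-0.052) and with pseudogenes summed (-0.046), RPS28 with upper-quartile scaling (-0.011), voom (-0.047) and the replicate block (-0.013), and RPS6 with upper-quartile scaling (-0.0043); the cause was not tested. With single libraries left out the ranges were -0.13 to 0.081 for RPL11, -0.25 to 0.016 for RPL3, -0.19 to 0.43 for RPL36A, -0.72 to 0.60 for RPL39, -0.036 to 0.35 for RPL39L, -0.52 to 0.21 for RPL41, -0.069 to 0.51 for RPL5, -0.091 to 0.093 for RPLP1, -0.0097 to 0.12 for RPLP2, -0.65 to 0.013 for RPS27, -0.39 to 0.35 for RPS28, -0.22 to 0.28 for RPS4X, -0.19 to 0.21 for RPS6 and -0.32 to 0.050 for RPSA.

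The groups share the replicate numbers 1 and 2, which the labels do not tie to a batch. Deviations of same-numbered libraries correlated at 0.149 over all genes tested. With the replicate number as a block 0 ribosomal protein genes were called and their median was -0.03, while over all genes 69 were called higher and 86 lower, against 5 and 0 without it. Over all genes the calls were 90 higher and 124 lower without the filter, 36 and 18 in DESeq2, and 5 and 2 with upper-quartile scaling. The number of libraries, 2 a group, limits the precision of every value here.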

Other observations

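Numbered pseudogenes of ribosomal protein genes had 497 rows with enough counts to test, of which 211 were above 0 and 286 below, with a median log2 fold change of -0.08, 0 called and 42 at an unadjusted p under 0.05 (edgeR). Both Rg3 libraries were below both controls in 118 of them (23.7%, against 17.0% of all genes tested) and above both in 38 (7.65%, against 15.3%). The row with the smallest p was RPL32P1, with 32 counts in each control and 5 and 3 counts with Rg3 (-3.07 ± 0.46, adjusted p = 0.176, edgeR). RPS15AP12 had 82, 107, 35 and 37 counts (-1.47 ± 0.29, adjusted p = 0.427, edgeR). Their parent genes RPL32 and RPS15A had controls that lay between the Rg3 libraries. Without Rg3 1 the pseudogenes' median was 0.08 and without Rg3 2 it was -0.31, the same split as in the genes.

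Windows of 300 bases around the annotated starts of 64 ribosomal protein genes were also searched on both strands for CCGGAAG, a core of sites of ETS family factors, found in 23 (35.9%, against 22.3% of 9512 tested genes), for GCCATCTT, a core of YY1 sites, found in 6 (9.38%, against 6.62%), and for TATAAA, found in 6 (9.38%, against 8.05%). These matches are letters in the sequence and were not tied to any value above.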
